A study of Mus musculus with 8 samples.

Results

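Among the testis loci that give PIWI-interacting RNAs (piRNAs), pi-Fam53b.1, pi-Mgll.2, pi-Zfp346.2, pi-Lsmd1.1 and pi-Gm5878.1 are genic loci with fewer piRNAs in Exd2∆ mice. They are 5 of the 114 loci that carry a gene's name; the tables hold another 94 that carry the name of a chromosome band. They were chosen by their small RNA values, so their small RNA differences are given as a description without a test, and the question put to the data is whether the long RNA of the host genes differed too. The study asked whether piRNA production changes when the Exd2 gene, for a protein with an exonuclease domain, is cut short. Exd2∆ mice are adult animals of C57BL6 background in which Cas9 editing of the embryo took out the 3' end of exon 2 of Exd2 with part of the next intron, and the controls are adult Exd2+/+ mice. The labels give no zygosity and no cell type, so the values are treated as those of whole testis. Each genotype had 2 replicates per assay, which the design text calls biological. Small RNA was cut from a gel of 10 µg of total RNA, and long RNA libraries were made with a directional kit from 1 µg after ribosomal RNA depletion. Whether the small and long RNA libraries of a number came from the same animal is not stated.

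Primary piRNAs of the adult mouse testis are cut from long single-stranded precursor RNAs and bind PIWI proteins. Most come from long intergenic precursors made in pachytene spermatocytes, but some messenger RNAs are also processed into piRNAs, often from their 3' untranslated region. At such a genic locus the small RNA count reads the piRNAs, and the long RNA count reads messenger RNA and precursor together. Every small RNA assigned to a locus is called piRNA in what follows, whatever its length, and every longer transcript read is called long RNA.

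The libraries held 28408830 to 37660202 estimated small RNA counts and 960909 to 1842625 estimated long RNA counts over all loci. Counting error (the inverse square root of the count) was at most 2.30% for any of the 5 in a long RNA library. In small RNA it was at most 4.79% for 4 of the loci and 4.97% to 10.2% for pi-Lsmd1.1, and it covers counting only. Exd2 lies outside the counted loci, so the genotype rests on the labels, and markers of testis cell types were not analysed here.

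Of the 5 host genes, 4 are protein-coding and 1 is a long non-coding RNA gene. The file places pi-Fam53b.1 on the minus strand of GRCm38 chromosome 7, from 132712087 to 132852628. Its 3' part covers Fam53b, whose protein promotes nuclear entry of beta-catenin in Wnt signalling, and this gene takes 72.4% of the span. Its 5' part covers a second coding gene on the same strand, Eef1akmt2, which encodes a lysine methyltransferase of elongation factor eEF1A and takes 17.9%. The locus begins 11 bp from the start of a GENCODE transcript of Eef1akmt2 and 38742 bp before the nearest start of Fam53b, so its long RNA count is not that of Fam53b alone. GENCODE also draws an extended Fgfr2 gene over the whole span, with 0 exonic bases in it.

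The remaining 4 loci each match a single coding or lincRNA gene on their strand. pi-Mgll.2 (chromosome 6, 88724469 to 88828357, plus strand) covers Mgll, the gene for monoacylglycerol lipase, which breaks down an endocannabinoid. pi-Zfp346.2 (chromosome 13, 55105321 to 55135057, plus strand) covers Zfp346, which encodes a zinc finger protein that binds double-stranded RNA. pi-Lsmd1.1 (chromosome 11, 69395816 to 69396674, plus strand) lies in Naa38, formerly Lsmd1, which encodes an accessory subunit of the NatC N-terminal acetyltransferase. It is 859 bp long, 156 bp of it overlap Tmem88 on the opposite strand, and whether counting used strand is not stated. pi-Gm5878.1 (chromosome 6, 85111415 to 85126094, minus strand) covers the lincRNA gene Gm5878. Models of unproven genes lie on the same strand inside pi-Fam53b.1 (Gm45501) and pi-Mgll.2 (Gm44005, Gm43999 and Gm44001). Gene models on the opposite strand overlap pi-Mgll.2, pi-Zfp346.2 and pi-Gm5878.1. They include the antisense gene Gm26588, over 1392 bp at the 5' end of pi-Mgll.2, and Gm17617, annotated as protein-coding, inside pi-Zfp346.2. All 8 counts at pi-Lsmd1.1 are whole numbers (within 0.001), whereas 7 of 8 counts at pi-Fam53b.1 and all 8 at each of the other 3 loci are fractional, and how fractions arose is not stated.

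**Figure D1:**
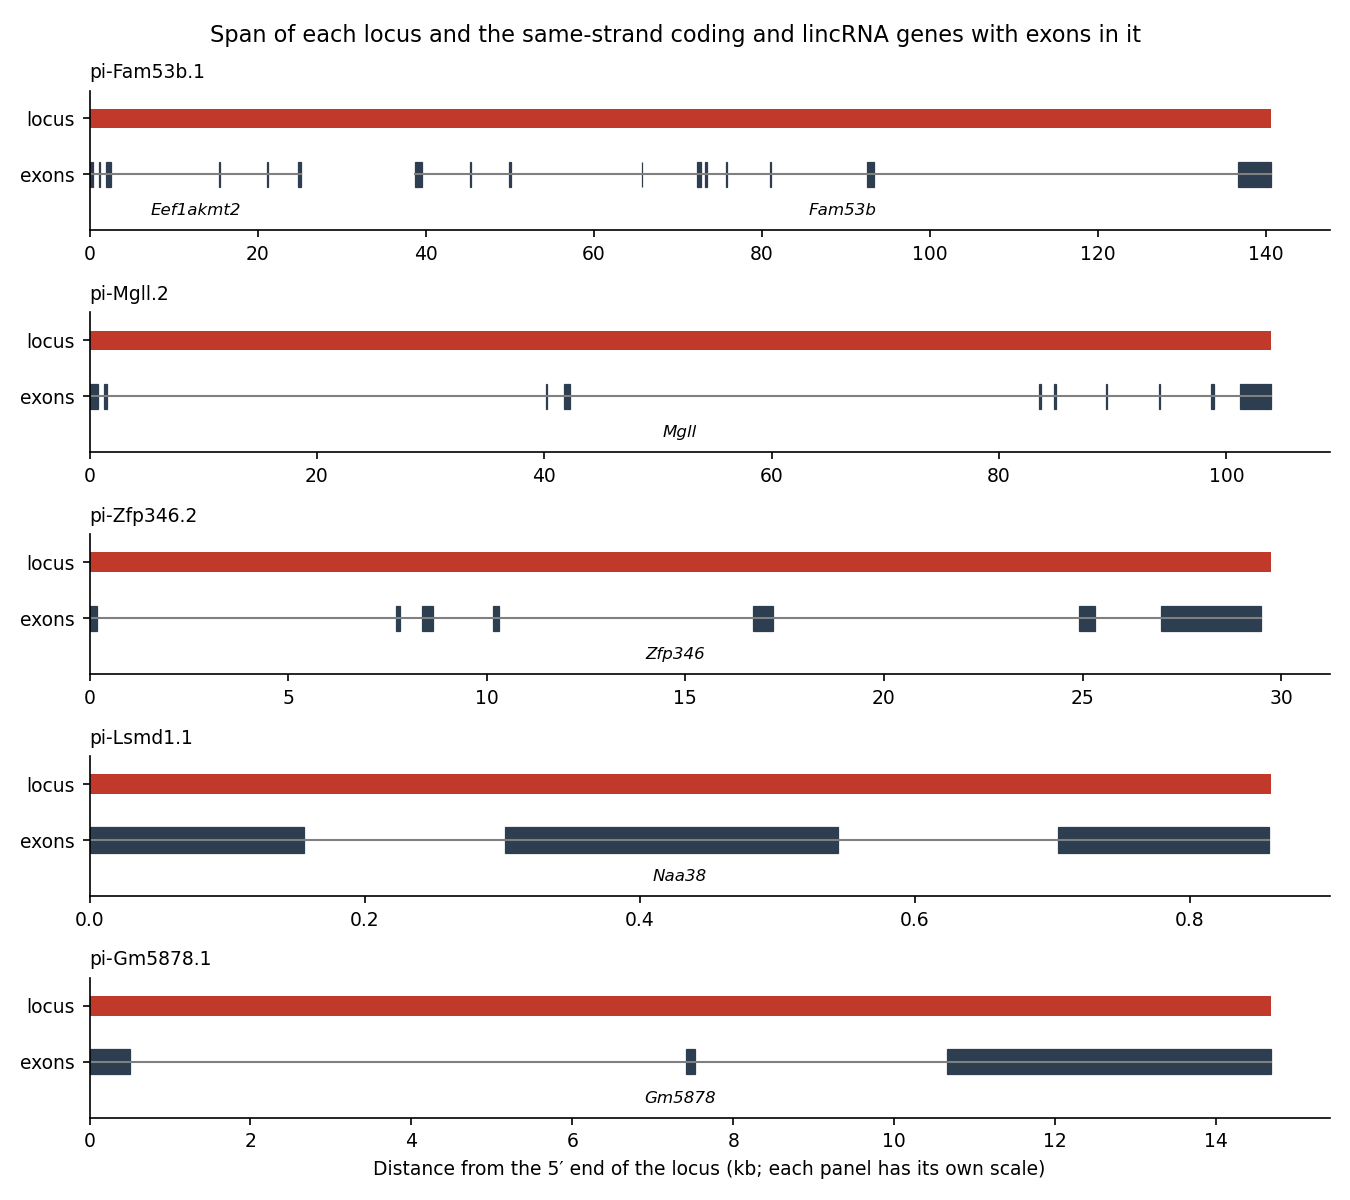
Span of each locus (red) above the exons (dark) of the coding and lincRNA genes on its strand, as distance in kb from the 5' end of the locus. pi-Fam53b.1 spans Eef1akmt2 and Fam53b, while each of the other loci holds the exons of a single such gene.

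RefSeq promoter windows (GRCm38.p6) were found for 3 of the 5 host genes, Fam53b, Mgll and Zfp346, and for Eef1akmt2. They are shown because they border the starts of the host transcripts. The locus starts 19 bp from the RefSeq start of Eef1akmt2, 57 bp from that of Mgll and 12 bp from that of Zfp346, while the Fam53b start lies inside pi-Fam53b.1. Only bases before the first annotated start are printed, in lower case, with capitals at matches on either strand to CAGTTG, a core bound by MYB proteins such as the piRNA gene activator A-MYB, or to CCAAT, the core bound by NF-Y.

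Eef1akmt2, chr7:132852674-132852897, minus strand: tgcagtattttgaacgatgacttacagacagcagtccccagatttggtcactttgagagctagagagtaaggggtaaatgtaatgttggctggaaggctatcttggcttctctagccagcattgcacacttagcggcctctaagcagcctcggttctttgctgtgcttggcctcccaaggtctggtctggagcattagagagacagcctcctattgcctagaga

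Fam53b, chr7:132813887-132814098, minus strand: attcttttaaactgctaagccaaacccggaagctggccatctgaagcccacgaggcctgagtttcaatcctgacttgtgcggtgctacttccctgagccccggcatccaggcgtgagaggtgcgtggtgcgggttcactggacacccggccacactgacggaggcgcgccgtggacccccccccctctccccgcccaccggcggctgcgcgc

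Mgll, chr6:88724162-88724411, plus strand: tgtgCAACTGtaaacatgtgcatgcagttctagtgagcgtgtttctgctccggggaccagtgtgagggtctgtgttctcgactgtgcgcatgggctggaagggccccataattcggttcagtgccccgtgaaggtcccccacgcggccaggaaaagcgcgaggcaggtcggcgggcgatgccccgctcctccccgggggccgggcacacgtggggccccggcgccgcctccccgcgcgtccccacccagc

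Zfp346, chr13:55105059-55105270, plus strand: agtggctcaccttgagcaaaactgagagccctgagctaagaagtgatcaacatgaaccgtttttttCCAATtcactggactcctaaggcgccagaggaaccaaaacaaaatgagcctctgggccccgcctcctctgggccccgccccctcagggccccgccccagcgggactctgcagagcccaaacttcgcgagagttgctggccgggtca

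The Mgll stretch holds CAACTG, the reverse complement of CAGTTG, from position -246 relative to the start, and the Zfp346 stretch holds CCAAT from -184. A different CAACTG, outside the printed stretch, lies 22 bases downstream of a second RefSeq start of Mgll. The Eef1akmt2 window and the 3 Fam53b windows of 300 bases hold neither motif. Of all 32851 promoter windows of that length in the RefSeq table, 13.7% hold CAGTTG and 37.4% hold CCAAT on either strand, so a match in a single promoter is common, and the 4 genes do not share either motif.

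In Exd2+/+ testis the lincRNA locus was by far the richest of the 5 in piRNAs. pi-Gm5878.1 held 5018 and 4967 CPM (TMM-scaled CPM, counts relative to the summed count of all loci in the library) in the 2 libraries, the highest level of the 114 gene-named loci and rank 45 among all loci. Per kb of locus span the piRNA level was 338 to 342 CPM at pi-Gm5878.1 and 12.8 to 15.4 at pi-Lsmd1.1. The 2 libraries of pi-Mgll.2 (1.47 and 1.85 CPM per kb) and pi-Zfp346.2 (1.58 and 1.43) overlapped, and pi-Fam53b.1 was lowest at 1.06 and 1.15. Per kb of exon, counting all annotated exons on the strand with those of unproven models, the last 3 changed places. The values were 13.3 and 14.5 CPM at pi-Fam53b.1, 10.3 and 13.0 at pi-Mgll.2 and 11.3 and 10.2 at pi-Zfp346.2. An unproven model holds 2526 of the 11151 exonic bases at pi-Fam53b.1, and Mgll holds 5017 of the 14852 at pi-Mgll.2. The order of these 3 therefore depends on which exons are counted. Which length the counting used is not stated.

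Long RNA followed another order. Per kb of span it was highest at pi-Lsmd1.1 (1599 and 1798 CPM), then pi-Gm5878.1 (213 in both), pi-Zfp346.2 (85.9 and 90.8), pi-Mgll.2 (64.9 and 70.2) and pi-Fam53b.1 (14.6 and 14.0), with no overlap between neighbours. The order was the same per kb of exon with the unproven models counted. Mgll itself holds 5017 of the 14852 exonic bases of pi-Mgll.2, so the place of this locus depends on that choice. The ratio of piRNA CPM to long RNA CPM, in which length cancels, was 1.60 at pi-Gm5878.1 (1.59 to 1.61 over the 4 combinations of Exd2+/+ libraries), the highest of the gene-named loci. The coding hosts lay far lower, at 0.0771 for pi-Fam53b.1, 0.0246 for pi-Mgll.2, 0.0170 for pi-Zfp346.2 and 0.00830 for pi-Lsmd1.1. The median was 0.0255 over the other gene-named loci and 0.863 over the 94 loci named for a chromosome band.

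**Figure D2:**
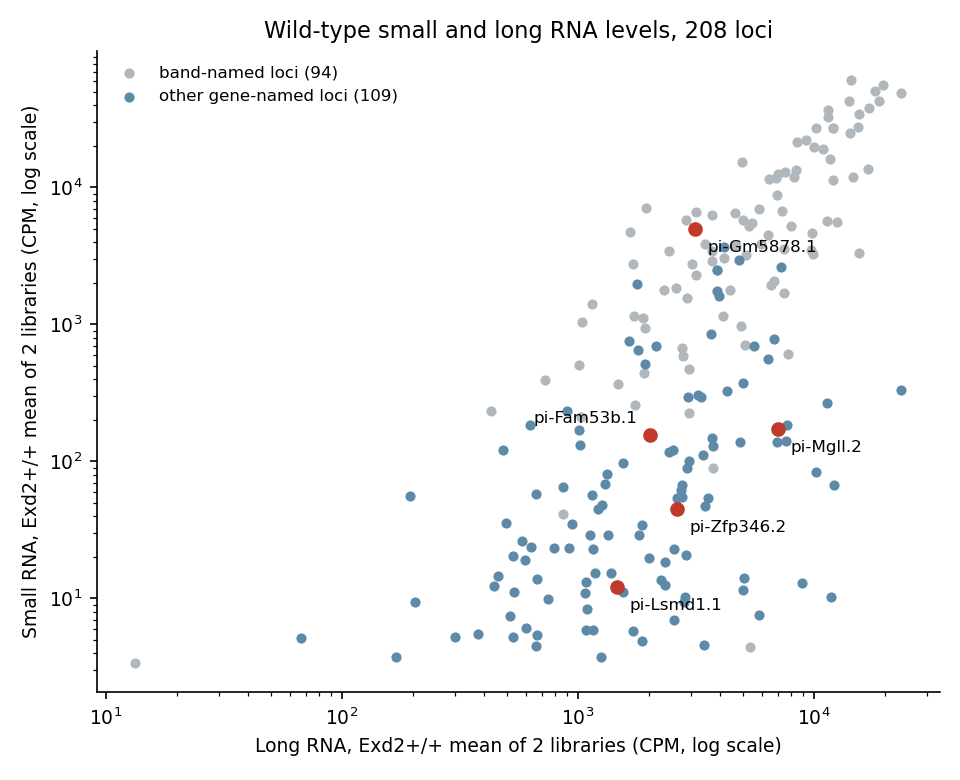
Mean small RNA CPM against mean long RNA CPM of the 2 Exd2+/+ libraries, both on log axes, for all loci. pi-Gm5878.1 lies among the band-named loci (grey), and the 4 loci with coding hosts lie among the gene-named loci (blue).

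In Exd2∆ testis the piRNAs of all 5 loci were lower, by amounts that ranged from 1.61-fold to 6.41-fold. The order by small RNA log2 fold change among the 114 gene-named loci puts them at ranks 1, 3, 4, 6 and 17. The choice is therefore not the 5 lowest: pi-Ip6k1.2 (-2.20) and pi-Dnmt3a.2 (-1.46) lie between them, pi-Hist1h1a.2 (-1.38) comes right after pi-Zfp346.2, and pi-Zfp382.1 (-0.72) and pi-Ddx19b.1 (-0.63) flank pi-Gm5878.1. Over all loci, 31.7% were called lower in small RNA by edgeR quasi-likelihood. Since this contrast chose the 5, nothing is read from it. In bulk testis RNA, fewer cells of a type and less RNA per cell cannot be told apart.

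pi-Fam53b.1 had the deepest difference of all counted loci. Its piRNAs measured 148 and 161 CPM in Exd2+/+ and 22.7 and 25.5 CPM in Exd2∆, a mean of 155 ± 8.99 against 24.1 ± 2.01 (SD, n = 2 each) and a log2 fold change of -2.68 ± 0.14 (SE). The Exd2∆ mean was 15.6% of the control mean, and the 2 Exd2∆ libraries differed by 0.17 on the log2 scale (median of all loci 0.11).

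Among the other coding hosts the piRNA level was between 31.0% and 38.3% of the control. pi-Mgll.2 measured 153 and 192 CPM in Exd2+/+ and 55.7 and 68.6 CPM in Exd2∆ (-1.47 ± 0.16, SE). pi-Zfp346.2 measured 47.0 and 42.6 against 15.6 and 18.7 CPM (-1.38 ± 0.14). The groups were well apart at both, although the 2 Exd2+/+ libraries of pi-Mgll.2 differed more (0.33 on the log2 scale) than those of most loci (median 0.07). pi-Lsmd1.1 was the poorest in piRNAs, with 13.2 and 11.0 CPM in Exd2+/+ and 3.45 and 4.05 CPM in Exd2∆ (-1.68 ± 0.14). The Exd2∆ values rest on 96 and 145 counts.

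The lincRNA locus showed the smallest fold difference and the largest difference in CPM. pi-Gm5878.1 measured 5018 and 4967 CPM in Exd2+/+ and 3223 and 2963 CPM in Exd2∆, a mean of 4993 ± 36.1 against 3093 ± 184 (SD, n = 2 each; log2 fold change -0.69 ± 0.06, SE). Summed, the 5 loci took 15.6% and 15.8% of the small RNA counts of all gene-named loci in Exd2+/+ and 10.9% and 10.1% in Exd2∆, most of it from Gm5878.

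**Figure D3:**
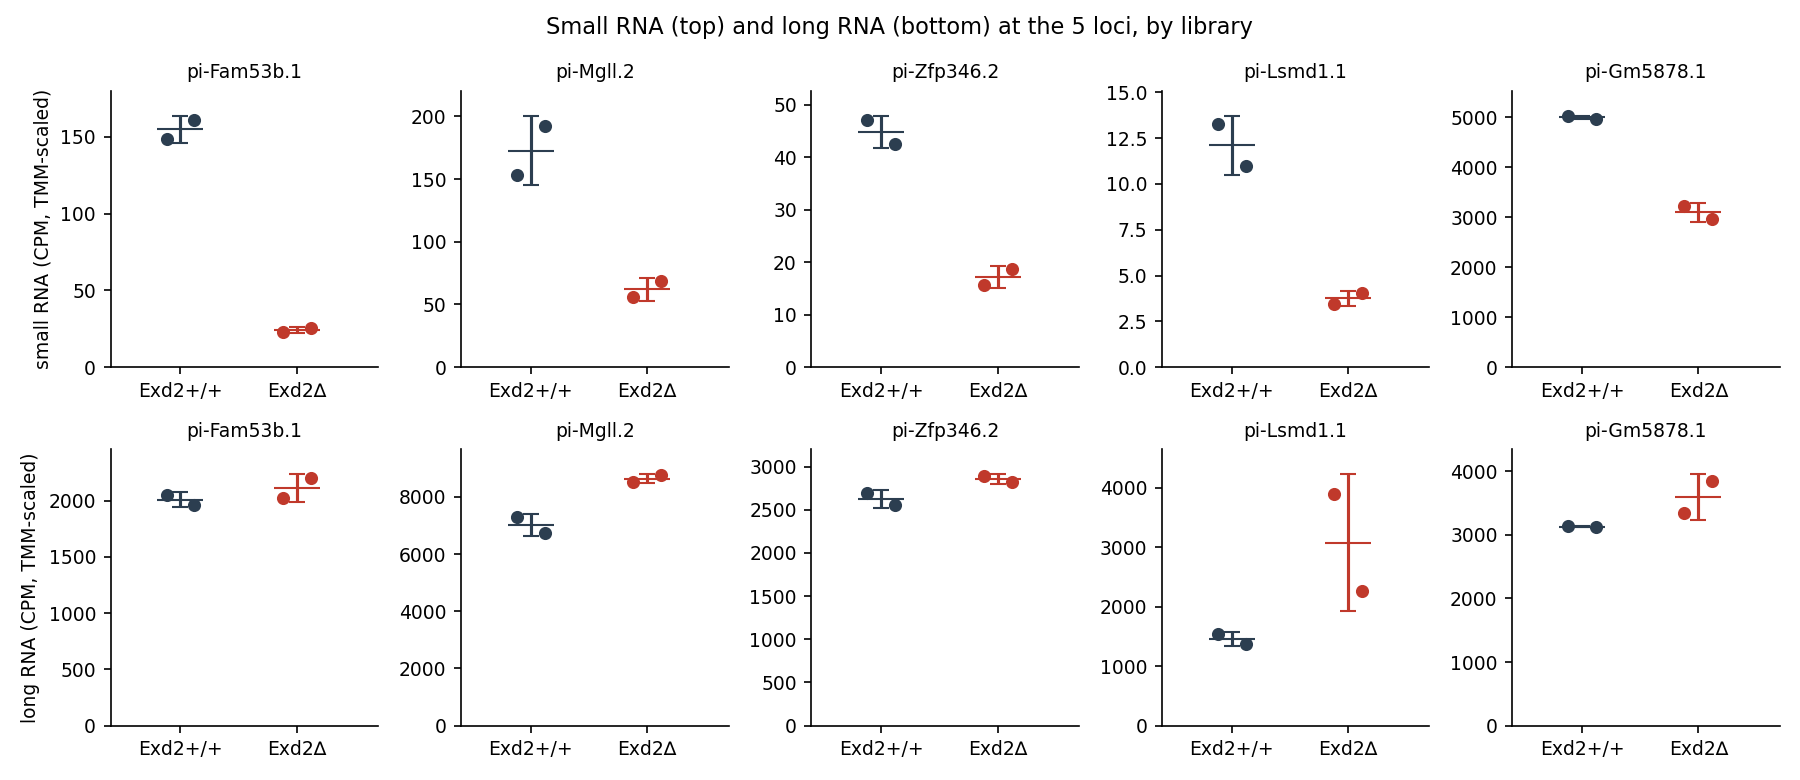
TMM-scaled CPM at each locus in every library (points), with the mean and SD of the 2 libraries per genotype (bars), for small RNA (top) and long RNA (bottom), each axis starting at 0. The small RNA points are the values that chose the loci; in long RNA the genotypes overlap at pi-Fam53b.1, the Exd2∆ points lie above the Exd2+/+ points at the other 4, and those of pi-Lsmd1.1 are widely spread (3892 and 2259 CPM).

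Long RNA gave a different picture: at none of the 5 loci was it called lower or higher in Exd2∆. The edgeR quasi-likelihood test called 0 of the 5 at an adjusted p below 0.05, against 7.69% of all loci. All 5 log2 fold changes were above 0, against 53.8% of all loci and 72.8% of the gene-named loci. The exception was pi-Fam53b.1 (-0.023) when TMM factors came from the gene-named loci. At an unadjusted p under 0.05 there were 2, pi-Lsmd1.1 and pi-Mgll.2, both higher, against 16.3% of all loci higher at that level. Other tools differed in their calls. DESeq2 called both of these loci (18.8% of all loci), edgeR's exact test called pi-Lsmd1.1 alone (12% of all loci), and limma-voom called 0 of the 5 (8.65% of all loci).

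At pi-Fam53b.1, where the piRNA difference was deepest, long RNA was nearly level. It measured 2053 and 1962 CPM in Exd2+/+ and 2022 and 2199 CPM in Exd2∆, and the groups overlapped. The log2 fold change was 0.07 ± 0.09 (SE; 95% interval -0.16 to 0.30; adjusted p = 0.616, edgeR quasi-likelihood), and it turned to -0.023 when TMM factors came from the gene-named loci alone. In percent the interval spans -10.3% to 23.3%.

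At pi-Mgll.2 both Exd2∆ libraries stood above both controls, with 8526 and 8750 CPM against 7290 and 6742 CPM. The log2 fold change was 0.30 ± 0.08 (SE; 95% interval 0.10 to 0.50), with an adjusted p of 0.0937 by edgeR quasi-likelihood and of 0.0297 by DESeq2. Without Exd2∆ replicate 1 or 2 the log2 fold change was 0.32 or 0.29, and without Exd2+/+ replicate 1 or 2 it was 0.36 or 0.24. Fits with a library left out are given by this value only, because the spread of a lone library cannot be measured. Over the 11 alternatives that kept every library the adjusted p ran from 0.0297 (DESeq2) to 0.197 (edgeR quasi-likelihood, TMM factors from the gene-named loci).

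pi-Zfp346.2 differed by little. Long RNA there measured 2699 and 2554 CPM in Exd2+/+ and 2897 and 2820 CPM in Exd2∆, close to each other but without overlap. The log2 fold change was 0.12 ± 0.09 (SE; 95% interval -0.10 to 0.34; adjusted p = 0.404, edgeR quasi-likelihood).

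pi-Lsmd1.1 had the largest long RNA difference of the 5, and the most uneven one. Its long RNA measured 1545 and 1374 CPM in Exd2+/+ and 3892 and 2259 CPM in Exd2∆, so that Exd2∆ replicate 1 was well above replicate 2 and both were above the controls. The log2 fold change was 1.07 ± 0.26 (SE; 95% interval 0.43 to 1.72; adjusted p = 0.0722, edgeR quasi-likelihood), the fifth highest of all loci and the second highest of the gene-named ones. Between the 2 Exd2∆ libraries the level differed by 0.78 on the log2 scale, more than at all but 3 of the counted loci (median 0.15). Counting error was at most 2.13% here, and the source of the gap was not tested.

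The value at pi-Lsmd1.1 depended on these libraries. It stood at 0.63 without Exd2∆ replicate 1 and at 1.42 without Exd2∆ replicate 2. The adjusted p was 1.66e-04 with DESeq2, 0.00131 with the exact test of edgeR, 0.0676 with limma-voom, and 0.0370 with edgeR quasi-likelihood and TMM factors from the gene-named loci alone. Without Exd2+/+ replicate 1 or 2 the log2 fold change was 1.16 or 0.99. With the replicate number as a block the value was 1.02 and passed, but the labels do not say that equal numbers pair the samples. Over all 15 alternatives the adjusted p ran from 7.11e-36, in a fit with a single Exd2∆ library, to 0.592 (edgeR quasi-likelihood).

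At pi-Gm5878.1 the 2 control libraries were nearly identical in long RNA, at 3130 and 3120 CPM, and the Exd2∆ libraries held 3335 and 3845 CPM. The log2 fold change was 0.20 ± 0.10 (SE; 95% interval -0.06 to 0.46; adjusted p = 0.271, edgeR quasi-likelihood). Without Exd2∆ replicate 1 it stood at 0.30, and without replicate 2 at 0.098. Over the 11 alternatives that kept every library the adjusted p ran from 0.242 (DESeq2) to 0.599 (edgeR quasi-likelihood, TMM factors from the gene-named loci).

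**Figure D4:**
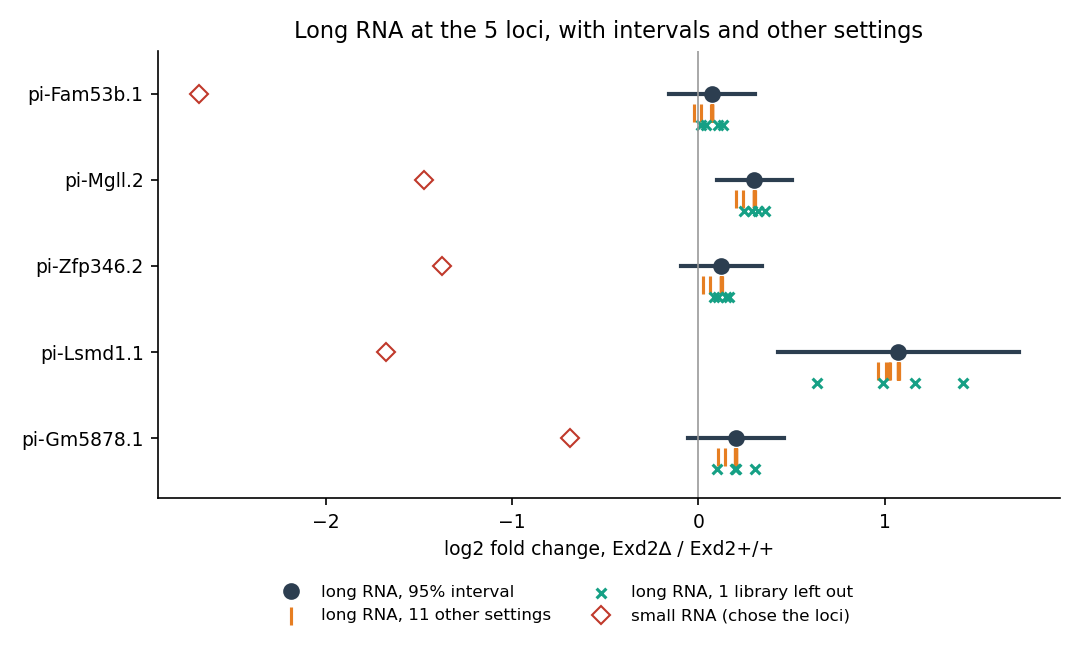
Long RNA log2 fold change of Exd2∆ over Exd2+/+ at each locus with its 95% interval (dark), its values under 11 other settings (orange) and with 1 library left out (green), beside the small RNA log2 fold change that chose the loci (open red). The long RNA intervals reach down to -0.16 at the lowest, and the small RNA values lie between -2.68 and -0.69.

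The authors' deposited table gives long RNA log2 fold changes of 0.07, 0.30, 0.12, 1.03 and 0.20 for pi-Fam53b.1, pi-Mgll.2, pi-Zfp346.2, pi-Lsmd1.1 and pi-Gm5878.1. The lowest adjusted p among them in the authors' deposited table is 0.0685, at pi-Lsmd1.1.

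The side of the long RNA values at the 5 loci is read beside that of the other loci. Both Exd2∆ libraries lay above both controls in long RNA at 4 of the 5 loci, against 32.2% of all loci and 44 of the other gene-named loci (40.4%). The median long RNA log2 fold change was 0.20 for the 5 loci, 0.07 for the other gene-named loci, of which 78 stood above 0, and 0.01 for all loci. Of those other gene-named loci, 4 were called, all higher (edgeR quasi-likelihood), and none lower, with values from -0.41 at pi-D10Wsu102e.2 to 1.36 at pi-Eif4ebp2.1. In small RNA the same loci had a median of 0.07, with 39 called higher and 26 lower.

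Set against long RNA, piRNA output per unit of long RNA was lower at all 5 loci. The piRNA to long RNA ratio went from 0.0771 to 0.0114 at pi-Fam53b.1, 6.75-fold lower, and from 0.00830 to 0.00122 at pi-Lsmd1.1, 6.81-fold lower. Over the combinations of Exd2∆ libraries the ratio ran from 0.0103 to 0.0126 at pi-Fam53b.1 and, more widely, from 8.85e-04 to 0.00179 at pi-Lsmd1.1. The long RNA log2 fold change that enters the ratio was 0.07 at the first and 1.07 at the second. The ratio was 3.42-fold lower at pi-Mgll.2, 2.84-fold lower at pi-Zfp346.2 and 1.85-fold lower at pi-Gm5878.1 (1.60 to 0.862). No test was made, because the ratio holds the small RNA values that chose the loci, and the median log2 change of the ratio over all loci was 0.03.

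**Figure D5:**
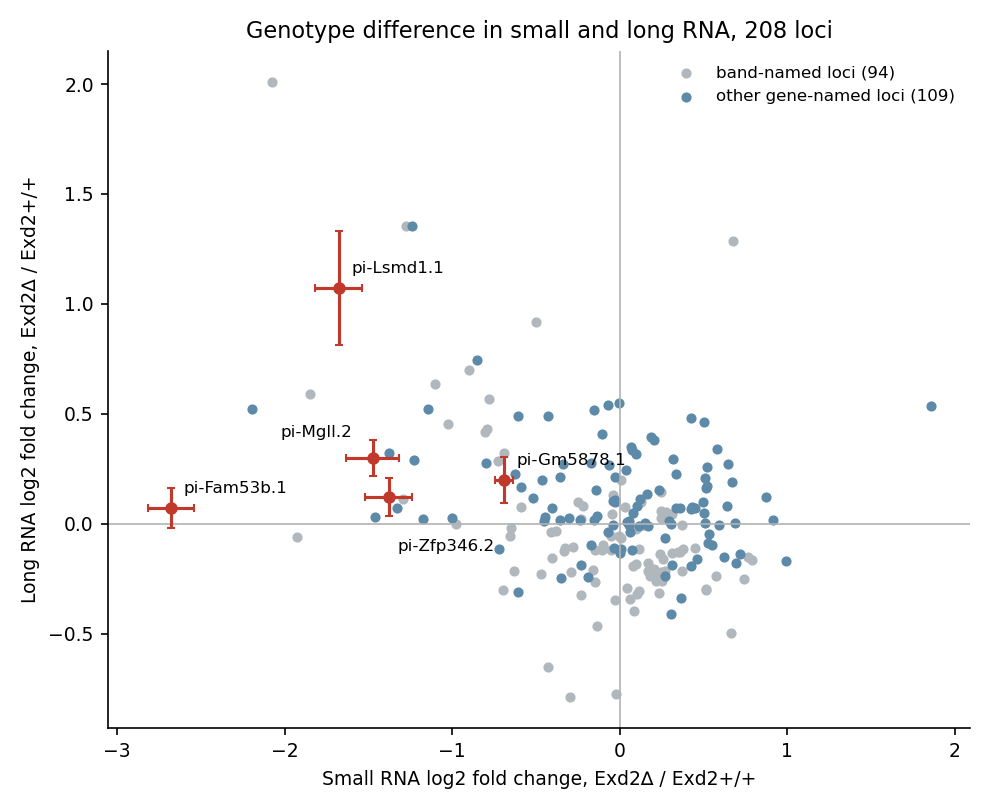
Long RNA against small RNA log2 fold change (Exd2∆ over Exd2+/+) for all loci, with the 5 loci in red and SE bars. They spread over -2.68 to -0.69 in small RNA, and 4 of them lie between 0.07 and 0.30 in long RNA while pi-Lsmd1.1 stands at 1.07.

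Likeness of pattern over the libraries was measured as the root mean square difference, over the 8 libraries, of log2(CPM + 1) taken relative to the Exd2+/+ mean of each assay. The closest pair among the 5 was pi-Mgll.2 and pi-Zfp346.2 (0.16), and the farthest was pi-Fam53b.1 and pi-Gm5878.1 (0.98). The median distance to all loci was 1.35 for pi-Fam53b.1, 0.79 for pi-Mgll.2, 0.71 for pi-Zfp346.2, 0.94 for pi-Lsmd1.1 and 0.43 for pi-Gm5878.1. Since the loci were chosen for lower small RNA, which is among the values compared, nothing is read from their closeness to each other. Of the other loci, pi-Zfp346.2 was most like 10-qA3-143.2 (0.05) and pi-Dnmt3a.2 (0.10), and pi-Mgll.2 was most like 10-qA3-143.2 (0.16) and pi-Fth1.1 (0.20). pi-Lsmd1.1 was most like 1-qD-2017.2 (0.23) and pi-Eif4ebp2.1 (0.25), at which long RNA was called higher (log2 fold changes of 1.35 and 1.36, adjusted p = 0.00397 at both by edgeR quasi-likelihood). pi-Gm5878.1 was most like pi-Rab11fip4.2 (0.09) and 6-qC3-6258.3 (0.10). For pi-Fam53b.1 the nearest, pi-Ip6k1.2 (0.34, with long RNA called higher, adjusted p = 0.0240 by edgeR quasi-likelihood) and 13-qA5-967.1 (0.37), were farther off than the nearest of the other 4. The remaining neighbours were not called in long RNA by that test. Long RNA is itself among the values compared, so nothing about the long RNA of the 5 loci is read from calls at their neighbours.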

How the data were processed

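Testis RNA of 2 Exd2∆ and 2 Exd2+/+ replicates was measured by small RNA-seq and by long RNA-seq (8 libraries). The authors deposited, for each assay, estimated counts per piRNA locus and library, many of them fractional and not scaled to library size, together with a log2 fold change and adjusted p-value of the authors for each locus, per the file headers. The submitters' processing notes name GRCm38 and the tools cutadapt, STAR and edgeR; how reads were assigned to loci, by strand and for repeated sequences, is not given in the sources used here. All per-sample columns were matched to samples by the codes in the labels.

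Counts were rounded and fitted over all loci, per assay, with edgeR 4.0.16 in R 4.3.3 (filterByExpr, which kept every locus, TMM, glmQLFit with its legacy option, glmQLFTest, genotype as the only term), and Benjamini-Hochberg adjusted p-values over all loci below 0.05 were calls. The fit was tested on simulated counts. CPM were computed by edgeR from the library's total over all loci, scaled by TMM, so a change shared by all loci would not be seen. The 95% interval of a log2 fold change comes from its standard error and total degrees of freedom. Alternatives were other scalings, filters and tools (the exact test of edgeR, limma-voom from limma 3.58.1, DESeq2 1.42.0), unrounded counts, a replicate block and leaving out each library. Genes came from GENCODE M21 and promoters from RefSeq, both on GRCm38. The loci, lists and settings were chosen with earlier results of these data known. All 5 loci are named; for each, the 2 other loci of most similar pattern are named, besides loci next to the 5 in order or at the end of a range.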

Additional observations from a re-analysis of the deposited data

How the results depend on the processing

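Over 15 alternatives, 64 of the 75 long RNA values of the 5 loci kept their sign and their side of the threshold, 10 passed it newly and 1 changed sign. The sign change was pi-Fam53b.1 with TMM factors from the gene-named loci (-0.023), a scaling that moved the median of all loci from 0.01 to -0.08. The setting without a filter repeated the reported values, because filterByExpr had kept every locus, and unrounded counts nearly did. pi-Mgll.2 passed with DESeq2 (0.30) and ranged over 0.24 to 0.36 with 1 library left out. pi-Lsmd1.1 passed with TMM factors from the gene-named loci (0.97), DESeq2 (1.07), edgeR's exact test (1.07) and the replicate block (1.02), and ranged over 0.63 to 1.42 with 1 library left out. pi-Gm5878.1 ranged over 0.10 to 0.30 in those fits. The number of the 5 called, 0 in the report, was 1 with TMM factors from the gene-named loci, 2 with DESeq2, 1 with the exact test, 1 with the replicate block and 0 to 3 with 1 library left out. Over all loci 16 were called, against 19, 39, 25 and 38 with those TMM factors, DESeq2, the exact test and the block, and 0 to 105 with 1 library left out. The lone library is assumed to vary like the others; without either Exd2∆ library, and with the block, the fit's total degrees of freedom far exceeded those of the reported fit (5.47). The cause of these differences was not tested.

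The piRNA differences kept their sign in all 40 alternatives, and 1 moved by more than the replicate spread (pi-Gm5878.1, -0.81 with TMM factors from the gene-named loci). The loci were chosen for lower piRNAs in these same libraries, so nothing is read from the kept signs. The labels do not say whether equal replicate numbers pair the samples. Across all loci, deviations of same-numbered libraries correlated at 0.34 in long RNA and 0.04 in small RNA. Each genotype gives a single difference between its 2 libraries, so these correlations can neither show nor exclude pairing. With 2 libraries per genotype, small long RNA differences may go uncalled.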
